A study of Mus musculus with 22 samples.

Results

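The nuclear genes for the 5 complexes of oxidative phosphorylation were followed in mouse liver, complex by complex. A gene was taken if its annotated symbol began with Ndufa, Ndufb, Ndufc, Ndufs, Ndufv, Uqcr, Atp5 or Cox4 to Cox8, or was Sdha, Sdhb, Sdhc, Sdhd or Cyc1, without the Ndufaf assembly factors. This rule used names only and found 82 of the 24704 named genes on the array, of which 35 belonged to complex I, 4 to complex II, 8 to complex III, 20 to complex IV and 15 to complex V. Of the 82, 13 were not ordinary subunits: 4 pseudogenes, 7 isoforms of complex IV known from muscle, lung or testis, the supercomplex factor Cox7a2l and the paralog Ndufa4l2. Ndufa4, named for complex I, was placed in complex IV, where its protein resides.

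Liver RNA came from 20 C57BL/6 mice, wild-type (WT) littermates or knockouts (KO) of Nat1 and Nat2, which encode arylamine N-acetyltransferases, and the study's title names energy metabolism and fatty acid oxidation as its subject. Males received a diet rich in fat and sucrose (HFHS), which gave 45 kcal% fat, 35 kcal% carbohydrate, 20 kcal% protein, or regular chow (13.5, 61.3 and 25.2 kcal%), and females received HFHS only, in each case for 12 weeks. The groups held 3 mice of each sex and genotype on HFHS, and 4 WT and 4 KO males on chow. Mice were listed as 12 weeks old, and the labels can be read either as separate diets or as chow followed by HFHS, in which case diet and age cannot be told apart. The design text counts 4 males per HFHS group, but the titles show 3 animals and 1 technical repeat. Every HFHS mouse had an array in Batch1 (12 arrays), and every chow mouse had its array in Batch2 (10 arrays). Only HFHS male WT 1 and HFHS male KO 3 were hybridised in both batches. The tissue is bulk liver, so fewer cells of a type and less RNA per cell cannot be told apart.

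Complex I takes electrons from NADH and complex II takes them from succinate. Complex III passes them to cytochrome c and complex IV to oxygen, and the proton gradient built by complexes I, III and IV drives ATP synthesis by complex V. Complex II is also an enzyme of the citric acid cycle, and it has no subunit encoded in mitochondrial DNA, whereas the other complexes combine nuclear subunits with mitochondrially encoded ones. The mitochondrially encoded genes were not analysed here. In liver, the chain reoxidises the NADH and FADH2 made by fatty acid oxidation.

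The factors NRF1, GABP (an ETS-family protein) and YY1 are known to act at promoters of nuclear respiratory genes, so the promoter windows of the members were searched for their core letters on both strands. RefSeq windows (GRCm38.p6) of 300 bases, 250 before and 50 after a start site, existed for 63 of the 82 genes, 68 windows in all. The NRF1 core, GCGC and TGCGC with 1 base between them, was in 15 of the 68 windows (22.06%), against 8.854% of the windows of all tested genes and 4.603% of all 32851 windows. CCGGAAG, an ETS core, was in 16 windows (23.53%), against 15.5% for tested genes and 8.858% for all. AAGATGG, a YY1 core, was in 9 windows (13.24%), against 6.704% and 6.338%. Of these 9, 7 belonged to complex I, which held 33 of the 68 windows. The windows searched for one motif were those searched for the others, and a match describes letters, not binding.

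The following 80-base stretches from upstream of the start sites, 5′ to 3′, were chosen to hold NRF1 cores, in both kinds of members described below. Atp5k (a small membrane subunit of ATP synthase, chr5:108434405-108434484, minus strand), Ndufa11 (a membrane-arm subunit of complex I, chr17:56717667-56717746, plus strand) and Ndufa5 (a peripheral-arm subunit of complex I, chr6:24527691-24527770, minus strand) were lower in Batch2 in both repeated animals. Sdha (the flavoprotein of complex II, chr13:74350241-74350320, minus strand) and Sdhd (its membrane anchor, chr9:50603884-50603963, minus strand) were not. Capitals mark NRF1 core matches on either strand.
Atp5k: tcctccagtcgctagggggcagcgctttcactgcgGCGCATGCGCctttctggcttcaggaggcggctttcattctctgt
Ndufa11: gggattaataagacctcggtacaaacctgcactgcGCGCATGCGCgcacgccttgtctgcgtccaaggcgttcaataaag
Ndufa5: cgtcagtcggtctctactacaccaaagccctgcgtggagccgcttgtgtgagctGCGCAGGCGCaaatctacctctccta
Sdha: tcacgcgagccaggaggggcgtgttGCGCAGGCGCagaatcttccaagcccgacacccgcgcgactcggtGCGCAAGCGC
Sdhd: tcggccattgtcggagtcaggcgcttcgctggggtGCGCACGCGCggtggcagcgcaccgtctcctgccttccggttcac
The match of Atp5k lay 50 to 41 bases before the start, that of Ndufa11 60 to 51, that of Ndufa5 26 to 17 and that of Sdhd 79 to 70. Sdha had 2 matches in this stretch, 55 to 46 and 10 to 1 bases before the start. Only stretches that hold the core were printed, so they do not show how often either kind of member holds it. The share with the core was not compared between the 2 kinds.

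All values are log2 expression as deposited, where a difference of 1 is a doubling. The filter kept genes with 3 or more arrays over the table median of 4.57, leaving 13871 genes and 74 of the 82 members. A gene was called in a comparison at an adjusted p below 0.05 (limma, Benjamini-Hochberg over all 13871 genes). Array medians ran from 4.47 to 4.62. Nat2 lay between 3.50 and 4.11 in the 10 KO mice and between 6.42 and 7.31 in the 10 WT mice, and Nat1 between 2.09 and 2.85 in KO and 2.87 and 3.95 in WT. Of the 9 hepatocyte markers measured, 8 lay above the table median in all 20 mice, whereas 0 of 8 striated muscle markers did. First arrays of male KO 3 and female WT 2 on HFHS deviated most from their group mates over all genes (SD 0.408 and 0.403), followed by HFHS male KO 1 at 0.389. The labels call the samples biological replicates, and the number of arrays limits the precision.

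Complexes I, II and III passed the filter whole, with 35, 4 and 8 genes, while 14 of 20 genes passed in complex IV and 13 of 15 in complex V. The 8 that did not pass averaged 2.30 (Cox7b2), 2.62 (Atp5c1-ps), 3.11 (Cox8c), 3.18 (Cox8b), 3.23 (Atp5h), 3.77 (Cox5b), 4.18 (Cox6b2) and 4.23 (Cox4i2) over the 20 mice. These included 5 of the 7 tissue isoforms of complex IV. The other 2, Cox6a2 (4.70) and Cox7a1 (4.83), which are known from heart and skeletal muscle, passed close to the table median. Cox5b and Atp5h encode ordinary subunits and also lay below the median, so their probe sets gave no measure of them in the comparisons. Probe sets annotated to the pseudogenes Cox5b-ps, Ndufs5-ps and Atp5l-ps1 averaged 9.17, 7.71 and 8.68, and whether they also detect the parent transcripts was not tested.

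Within groups, members differed in how tightly the mice agreed. The SD pooled over the 6 groups ran from 0.0717 for Atp5b, the catalytic β subunit of ATP synthase, to 0.404 for Ndufa11, with a median of 0.156. Across the 20 mice, complex I members averaged from 4.66 (Ndufb3) to 11.91 (Ndufb9), complex II from 8.93 (Sdhb) to 10.26 (Sdha) and complex III from 6.44 (Uqcrfs1, the Rieske iron-sulfur protein) to 10.53 (Uqcrc2, a core protein). Complex IV ran from 4.20 (Cox7b) to 12.31 (Cox6a1), and complex V from 5.59 (Atp5o) to 11.11 (Atp5b). These are levels of different probe sets and give no order of transcript abundance between genes.

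Averaged over its 74 tested members, the chain had 2 levels, and they followed the batch. The mean log2 level was 8.29 ± 0.083 (SD, n = 3) in male WT and 8.22 ± 0.091 (n = 3) in male KO mice on HFHS, 8.31 ± 0.034 (n = 3) in female WT and 8.26 ± 0.090 (n = 3) in female KO mice. It was 7.98 ± 0.069 (n = 4) in male WT and 7.96 ± 0.050 (n = 4) in male KO mice on chow. The 12 Batch1 arrays ran from 8.11 to 8.38 and the 10 Batch2 arrays, which include the second arrays of 2 HFHS males, from 7.75 to 8.07, with no overlap.

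Array means separated fully by batch in complexes I, IV and V, nearly so in complex III, and not in complex II. Array means of complex I ran from 8.06 to 8.38 in Batch1 and from 7.69 to 8.03 in Batch2, those of complex IV from 7.45 to 7.66 and 7.12 to 7.43, and those of complex V from 8.45 to 8.67 and 8.03 to 8.32. In each of these the batches did not overlap. Complex III ran from 8.22 to 8.61 in Batch1 and from 7.80 to 8.26 in Batch2 and overlapped slightly. Complex II overlapped widely, at 9.55 to 9.80 and 9.39 to 9.68.

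**Figure D1:**
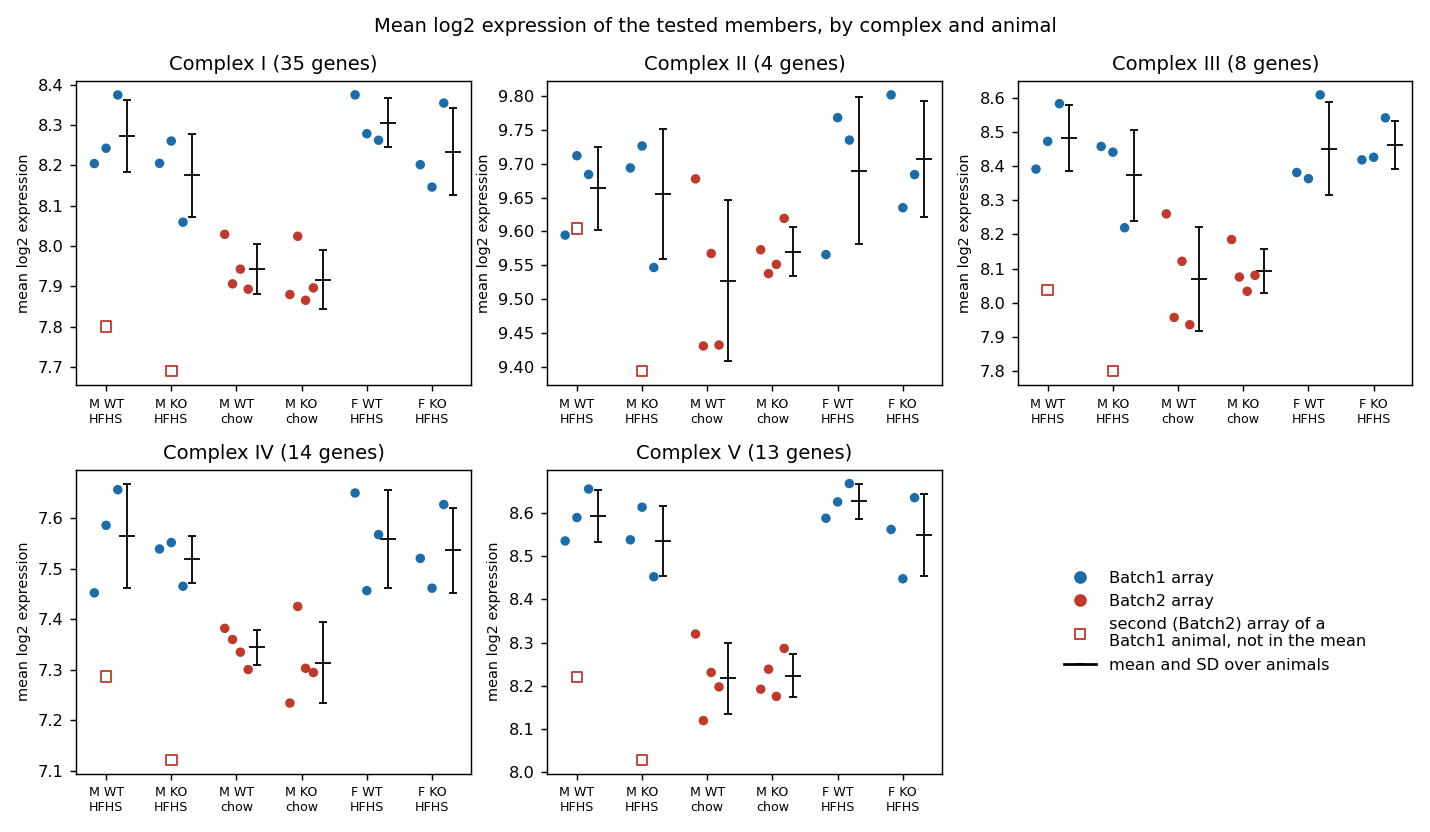
Mean log2 expression of the tested members of each complex (vertical axis) in every mouse, by group (horizontal axis); blue points are Batch1 arrays, red points Batch2 arrays, open squares the second arrays of the 2 repeated mice, and bars the mean and SD over mice. In complex I the Batch2 arrays, chow mice and repeats alike, lie at or below 8.03, under all Batch1 arrays, whereas in complex II the batches overlap.

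The 2 mice with an array in each batch measured the shift directly, since genotype, diet and animal were then the same. In male WT 1, 63 of 74 members were lower in Batch2, with a median difference of −0.32, a 1.25-fold lower signal. In male KO 3, 62 of 74 were lower, with a median of −0.35 (1.28-fold). Lower in both mice were 56 of 74 (75.7%), against 27.8% of all tested genes, whose medians were −0.01 and −0.02. A batch term, which rests on those 2 mice, was fitted over all 22 arrays with arrays of 1 animal as a random block. It also sets their second arrays against first arrays of their group mates, so it is not the shift within mice alone. Their first arrays already lay under those of their group mates for 59 of 74 members in male WT 1 and 56 in male KO 3. The member median of the term was −0.39, against −0.33 for the mean shift within the 2 mice. By this term 24 members were called lower in Batch2 and 0 higher, against 1.30% and 0.231% of all tested genes (limma). This test was added after the values had been seen. The count was 5 without male WT 1 and 2 without male KO 3, where a single mouse carried the term, and 21 to 26 without any other mouse.

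The shift ran through 4 of the 5 complexes. Lower in both mice were 28 of 35 complex I genes, 8 of 8 complex III genes, 10 of 14 complex IV genes and 9 of 13 complex V genes, but 1 of 4 complex II genes. The median of the mean shift was −0.36 in complex I, −0.39 in complex III, −0.29 in complex IV, −0.33 in complex V and 0.05 in complex II. Called lower by the batch term were 11 of 35 genes in complex I, 2 of 8 in complex III, 5 of 14 in complex IV, 5 of 13 in complex V, and in complex II Sdhb alone.

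Atp5k had the deepest mean shift: it read 9.78 in Batch1 and 8.61 in Batch2 in male WT 1, and 9.79 and 8.14 in male KO 3. Atp5e, the ε subunit of ATP synthase, read 8.09 and then 7.05 in male WT 1, and 7.94 and then 6.63 in male KO 3. Chow mice ran from 8.38 to 8.83 for Atp5k and from 7.03 to 7.51 for Atp5e. The second array of male WT 1 thus lay inside the chow range for both genes and that of male KO 3 under it. The batch term was −1.47 ± 0.12 (SE, adjusted p = 2.47e-06, limma) for Atp5k and −1.35 ± 0.15 (adjusted p = 3.73e-05) for Atp5e.

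Within complex II the subunits differed among themselves. Sdhb, the iron-sulfur subunit, was lower in Batch2 in both mice, with differences of −0.34 and −0.77 (9.02 to 8.68 and 9.16 to 8.40). Sdhc, a membrane anchor, was higher in both (9.95 to 9.99 and 9.74 to 10.04). Sdha read 10.32 and 10.35 in male WT 1, and 10.21 and 10.17 in male KO 3, with differences of 0.04 and −0.04. Sdhd read 9.10 and 9.39 in the first mouse, and 9.07 and 8.97 in the second. The batch term was −0.60 ± 0.12 for Sdhb (adjusted p = 0.0175, limma), and Sdha (0.02 ± 0.10), Sdhc (−0.00011 ± 0.12) and Sdhd (0.02 ± 0.12) were not called.

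Higher in both mice were 5 of 74 members (6.76%), against 23.0% of all tested genes. These were Sdhc, Ndufb11 (6.88 to 7.06 and 6.29 to 6.80), the γ subunit gene Atp5c1 (5.54 to 5.84 and 5.36 to 5.75), and the muscle isoforms Cox6a2 and Cox7a1 near the table median. Other members differed in opposite directions in the 2 mice. Cox7b, a small X-linked subunit of complex IV near the table median, differed by 0.98 in male WT 1 and by −0.98 in male KO 3. Ndufab1, the acyl carrier protein of complex I, differed by −0.58 in male WT 1 and by 0.63 in male KO 3. For both genes, 2 arrays of 1 mouse thus differed by more than the genotype difference among HFHS males given below.

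**Figure D2:**
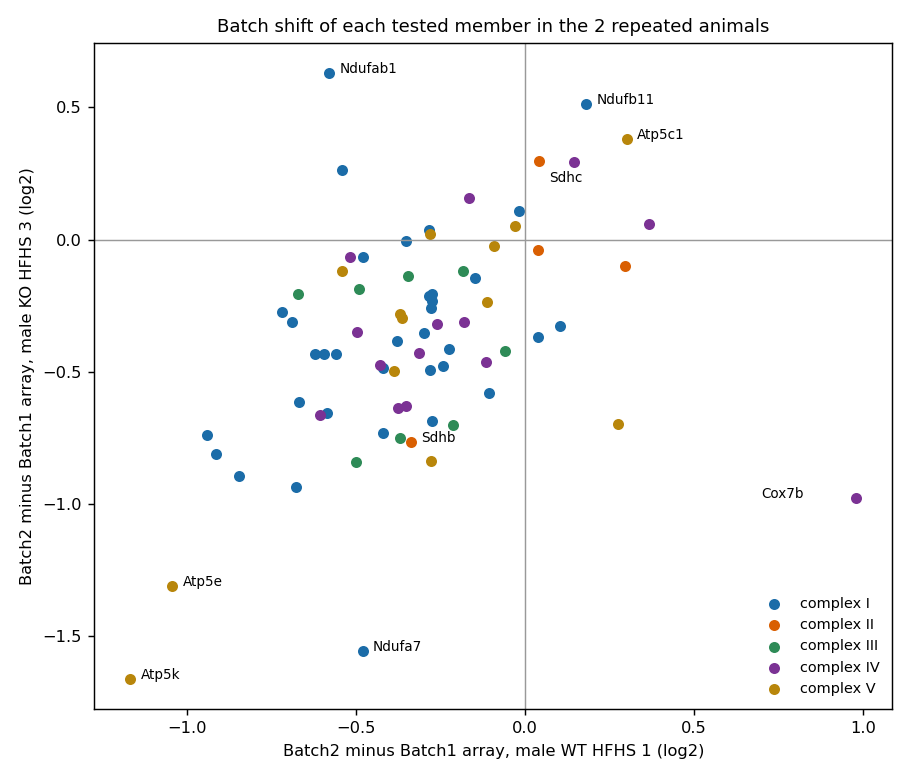
Batch2 minus Batch1 log2 difference of each tested member in HFHS male WT 1 (horizontal axis) and HFHS male KO 3 (vertical axis), coloured by complex. Most points (56 of 74) lie in the lower left quadrant, Atp5k and Atp5e farthest out. In complex II, Sdhb lies lower in both mice and Sdha within 0.04 of 0 in both, while Sdhd in male WT 1 and Sdhc in male KO 3 lie at 0.30.

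Other gene lists shifted to different degrees. Of all tested genes, 51.9% and 52.9% were lower in Batch2 in male WT 1 and male KO 3. Mitochondrial ribosomal protein genes were lower in 54 and 60 of 72 cases (medians −0.23 and −0.24), and assembly factors in 30 and 36 of 47 (−0.06 and −0.21). Genes on a cytosolic ribosomal protein list were lower in 28 and 29 of 40 (−0.17 and −0.33). That list was taken by symbol, so it also held the related symbols Rps19bp1, Rps23rg1 and Rpl36al. Of 15 other mitochondrial genes (citric acid cycle, transport and chaperones), 7 and 14 were lower (0.00 and −0.20). Hepatocyte markers were lower in 3 of 9 in both mice, with medians of 0.05 and 0.15. What the batches differed in is not given in the labels.

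Diet in males was therefore read in the same fit of all 22 arrays with the batch term. In that fit 0 of 74 members were called in WT mice, 0 in KO mice and 0 in their average, against 0.0360%, 0.202% and 0.137% of all tested genes. By unadjusted p below 0.05, 2, 12 and 9 members were lower on HFHS and 0 higher, against 6.83%, 11.1% and 10.7% of all tested genes in either direction. The median member difference, HFHS minus chow, was −0.08 in WT mice (51 of 74 lower, against 49.8% of all tested genes), −0.14 in KO mice (64 of 74, 50.3%) and −0.11 in the average (63 of 74, 50.1%), while the medians of all tested genes lay within 0.01 of 0. Leaving out single mice moved these medians to between −0.10 and −0.035 in WT mice (−0.035 without chow male WT 1), between −0.16 and −0.068 in KO mice and between −0.14 and −0.053 in the average (−0.068 and −0.053 without HFHS male KO 3). Without the batch term the medians were 0.31, 0.28 and 0.27, so their sign depends on that term. Its member median of −0.39 was deeper than the −0.33 within the 2 mice, whose first arrays were low among their group mates. A lower level of the members on HFHS is therefore not established.

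By complex, the averaged diet median was −0.15 in complex I (30 of 35 lower), −0.03 in complex II (4 of 4), −0.09 in complex III (7 of 8), −0.14 in complex IV (12 of 14) and −0.07 in complex V (10 of 13). Without HFHS male KO 3 the medians of complexes II and V were 0.083 and 0.0081. The member with the smallest p was Ndufb11, a small membrane-arm subunit of complex I. Its adjusted p was 0.272 and its difference −0.61 ± 0.21 (SE), at −0.43 in WT and −0.78 in KO mice. Uqcrh, the hinge protein of complex III, had −0.28 ± 0.11 (adjusted p = 0.348), and Atp5e had −0.35 ± 0.15 (adjusted p = 0.399). Ndufa4 of complex IV had −0.26 ± 0.11 (adjusted p = 0.403) and Sdhc −0.04 ± 0.13 (adjusted p = 0.944).

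Without the batch term, with 1 array per mouse, the same comparison turned over. Members were then higher on HFHS in 63 of 74 cases in WT mice (median 0.31) and in 63 of 74 in KO mice (0.28), against 51.3% and 52.5% of all tested genes. In WT mice 20 members were called higher (2.45% of all tested genes) and 1 lower (1.01%), and in KO mice 13 higher (4.61%) and 1 lower (2.54%). Groups did not overlap for 39 members higher and 4 lower on HFHS in WT mice (10.6% and 7.07% of all tested genes) and for 29 and 2 in KO mice (11.2% and 8.17%).

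Uqcrh gives the pattern in single mice. On HFHS it read 9.74, 9.95 and 10.01 in male WT and 9.78, 9.91 and 9.75 in male KO mice, and on chow 9.46, 9.34, 9.23 and 9.34 in WT and 9.41, 9.56, 9.33 and 9.36 in KO mice. The second arrays of the repeated HFHS mice read 9.24 and 8.91. All first HFHS arrays thus lay above all chow mice, and both second arrays lay at the bottom of the chow range or under it. The WT difference was 0.56 ± 0.10 (SE, adjusted p = 0.00788) without the batch term and −0.17 ± 0.13 (adjusted p = 0.870) with it.

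Atp5k differed most without the batch term, by 1.28 ± 0.12 in WT (adjusted p = 2.37e-05) and 1.38 ± 0.12 in KO mice (7.27e-06). On HFHS it read 9.78, 10.09 and 9.86 in male WT and 9.72, 9.94 and 9.79 in male KO mice. On chow it read 8.83, 8.49, 8.68 and 8.51 in WT, and 8.40, 8.44, 8.54 and 8.38 in KO mice. With the batch term its difference was −0.14 ± 0.15 in both genotypes.

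Ndufb11 was the member called lower on HFHS without the batch term in both genotypes, at −0.85 in WT (adjusted p = 0.0307) and −1.20 in KO mice (0.00313). It is also among the 5 members that were higher in Batch2 in both repeated mice, by 0.18 and 0.51. Its direction was the same with the batch term, where it was not called.

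Within Batch2 alone, the repeated HFHS array could be set against the 4 chow mice of its genotype. The first array of male WT 1 lay above all 4 WT chow mice for 45 of 74 members (60.8%, against 26.7% of all tested genes) and its second array for 6 (8.11%, against 22.9%). That second array lay below all 4 for 20 (27.0%), near the 21.6% of all tested genes. The first array of male KO 3 lay above all 4 KO chow mice for 35 members (47.3%, against 30.6%) and its second array for 3 (4.05%, against 22.7%), with 44 below all 4 (59.5%, against 24.3%). In Batch2 the median difference was −0.04 for WT and −0.19 for KO mice, and each of these values is 1 HFHS mouse. Kupffer cell markers averaged 7.11 to 7.76 in the first arrays of HFHS males, in Batch1, and 6.60 to 7.71 in chow males, in Batch2. In each repeated mouse 6 of the 8 markers were lower in Batch2 (medians −0.16 and −0.31), and the part of this in the members' values was not tested.

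**Figure D3:**
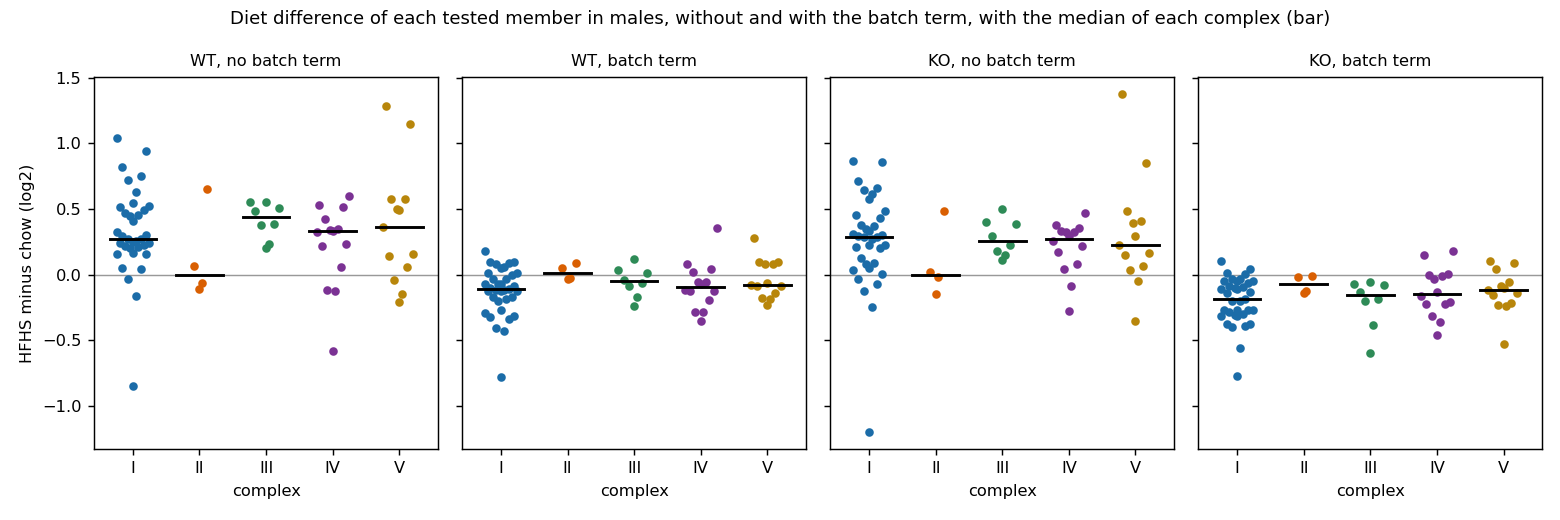
HFHS minus chow log2 difference of each tested member in males (vertical axis), by complex (horizontal axis), for WT and KO mice without and with the batch term; bars are complex medians. In WT mice the median over all members is 0.31 without the term and −0.08 with it. The complex II median in WT mice is near 0 in both, with Sdhb at 0.65 without the term.

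Genotype could be compared within batches, since each KO group shared its batch with its WT group. In HFHS males, 0 of 74 members were called by limma (0.0360% of all tested genes), in chow males 0 (0.0360%), in HFHS females 0 (0.0505%) and in the average of the 3 differences 0 (0.166%). By unadjusted p below 0.05 there were 2 higher and 2 lower in HFHS males (5.97% of all tested genes), 0 and 1 in chow males (4.38%), 0 and 5 in females (4.74%) and 1 and 2 in the average (5.03%). Differences between diets and between sexes in the genotype effect were called for 0 members, at 0% of all tested genes, with 0 members at an unadjusted p below 0.05 (5.77% and 5.17% of all tested genes).

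On HFHS and in the average, most members lay lower in KO mice, by a small amount that no single member's test passed. In chow males the share was near that of all tested genes. In HFHS males 61 of 74 were lower, against 49.4% of all tested genes, with a median of −0.10, a 1.07-fold lower signal. In chow males 40 of 74 were lower (50.1% of all genes; median −0.01) and in HFHS females 50 of 74 (49.9%; median −0.05). In the average 58 of 74 were lower (49.7%), with a median of −0.06. Medians of all tested genes lay within 0.01 of 0 in each. Mean log2 levels over the 74 members overlapped between genotypes in each of the 3 comparisons. They ran from 8.22 to 8.38 in WT and 8.11 to 8.29 in KO mice among HFHS males. Among chow males they ran from 7.92 to 8.07 and 7.92 to 8.04, and among HFHS females from 8.27 to 8.34 and 8.18 to 8.36. The pooled SD of these means within groups was 0.071. Members of 1 mouse share an array, so the counts are not of independent observations.

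The size of the median in HFHS males depended on single mice. It was −0.04 without male KO 3, whose first array lay under its group mates for 56 of 74 members, and −0.15 without male KO 2. Of the erythroid markers, Hbb-bt differed by 2.33 ± 0.63 (SE, adjusted p = 0.454, limma) and Alas2 by 0.22 ± 0.30 (adjusted p = 0.938) in HFHS males. Means over the 3 erythroid markers measured ran there from 5.34 to 7.37 in KO and 4.69 to 5.81 in WT mice, with overlap. In HFHS females these means were 4.73 to 4.98 in KO and 4.00 to 4.31 in WT mice, without overlap. In chow males they were 4.25 to 5.04 in KO and 4.26 to 4.88 in WT mice. The part of these markers in the members' values was not tested. In chow males the median ran from −0.048 to 0.010 when single mice were left out and was negative in 6 of 8 refits. In females it ran from −0.09 to −0.02 and in the average from −0.07 to −0.04 when single mice were left out, negative in 20 of 20 refits. The difference between HFHS and chow males in the genotype effect had a median of −0.08 and turned to 0.02 without male KO 3.

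Lower in KO mice in all 3 strata were 22 of 74 members (29.7%), against 11.9% of all tested genes. These were 10 of 35 genes in complex I, 0 of 4 in complex II, 1 of 8 in complex III, 7 of 14 in complex IV and 4 of 13 in complex V. Higher in all 3 were Atp5d, Cox6a2 and Uqcr11 (4.05%, against 12.3%). Members of 1 mouse are read on the same array, so these counts do not measure how consistent a genotype difference is. Complex medians in the average were −0.07 in complex I (31 of 35 lower), 0.01 in complex II (0 of 4), −0.03 in complex III (6 of 8), −0.06 in complex IV (10 of 14) and −0.06 in complex V (11 of 13).

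Ndufab1 had the smallest p of the members in the average. On HFHS it read 7.68, 7.47 and 7.27 in male WT and 7.17, 6.83 and 6.74 in male KO mice, without overlap. In females it read 7.69, 7.60 and 7.57 in WT and 7.29, 6.72 and 7.68 in KO mice, with 1 KO mouse among the WT values, and in chow males 7.07 to 7.40 in WT and 6.87 to 7.52 in KO mice. The average difference was −0.34 ± 0.11 (SE, adjusted p = 0.677), with −0.56 ± 0.20 in HFHS males. The second arrays read 7.10 in male WT 1 and 7.37 in male KO 3, in the opposite order to their first arrays.

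Atp5d, the δ subunit of ATP synthase, lay higher in KO mice, by 0.22 ± 0.08 in the average (adjusted p = 0.753). On HFHS it read 7.84, 7.78 and 7.90 in male WT and 8.01, 8.08 and 8.46 in male KO mice, without overlap, and the female and chow groups overlapped. Its second arrays read 8.11 in WT 1 and 7.76 in KO 3, again in the opposite order.

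Groups did not overlap for 3 members higher and 8 lower in KO mice among HFHS males (5.39% and 4.77% of all tested genes). Higher were Atp5d, Cox7b and Ndufs6, and the lower ones included Ndufs1, which carries iron-sulfur clusters in complex I, and Uqcrc2. Ndufs1 read 8.66, 8.80 and 8.72 in WT and 8.52, 8.58 and 8.38 in KO mice, and its difference was −0.23. Among chow males there were 2 higher and 1 lower (1.63% and 1.47%), and among females 0 higher and 6 lower (4.34% and 4.41%). The 6 were Atp5k, Atp5md, Atp5pb, Cox8a, Ndufb1 and Uqcrh. In females Atp5k read 10.01, 10.19 and 10.01 in WT and 9.73, 9.59 and 9.96 in KO mice, a difference of −0.31 ± 0.13 (adjusted p = 0.999).

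The members with the smallest p in the other complexes were not called either. In HFHS males these were Sdhd at 0.08, Uqcrfs1 at −0.22 and Cox7b at 0.66 ± 0.27 (adjusted p = 0.766, limma). The WT values of Cox7b there, 3.54 to 3.77, lay under the table median. In females they were Sdha at 0.08, Uqcrh at −0.25 and Cox4i1 at −0.28 ± 0.13 (adjusted p = 0.999). In chow males they were Ndufb7 at −0.28 ± 0.13, Sdhc at 0.15, Cyc1 (cytochrome c1) at 0.11, Cox5b-ps at −0.28 and Atp5k at −0.19.

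Nat1 and Nat2 lie on mouse chromosome 8, as do 3 members. Ndufa13 was 2.39 Mb from Nat2, Ndufb7 16.1 Mb and Cox4i1 53.2 Mb (GRCm38.p6). Their average genotype differences were −0.10 ± 0.07, −0.14 ± 0.08 and −0.13 ± 0.07 (SE), none called, with an adjusted p of 0.998 for each.

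**Figure D4:**
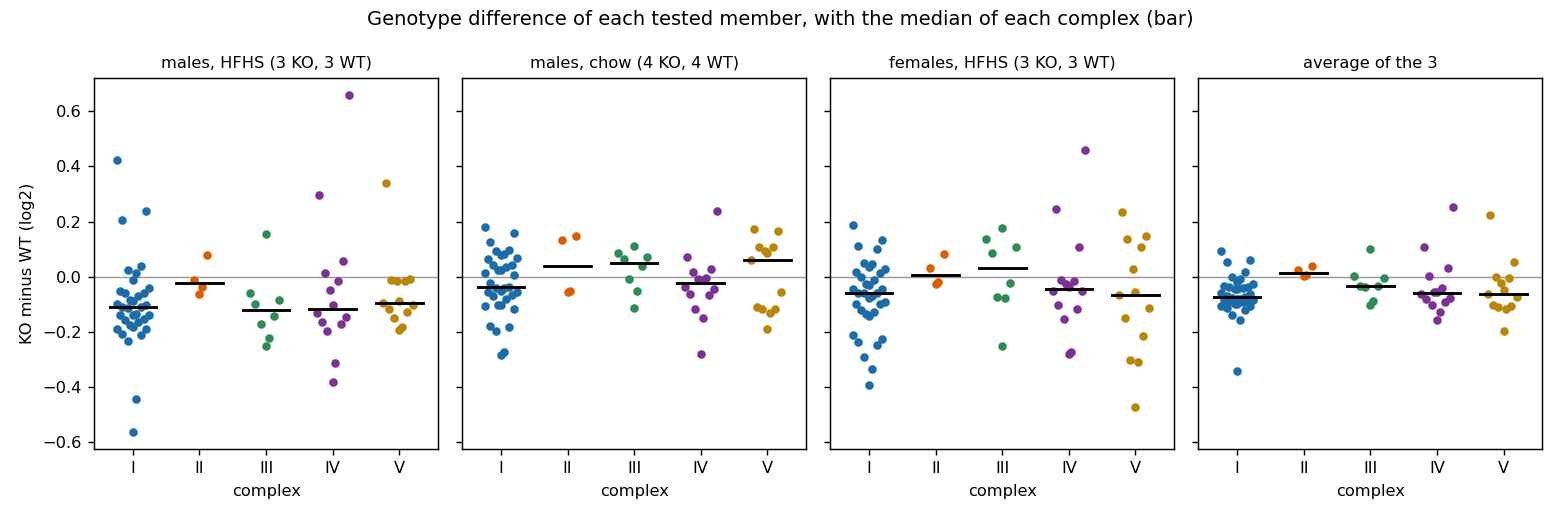
KO minus WT log2 difference of each tested member (vertical axis) by complex (horizontal axis) in HFHS males, chow males, HFHS females and their average; bars are complex medians. In the average, points of complexes I, III, IV and V lie mostly under 0 with medians from −0.07 to −0.03, and the 4 points of complex II lie just above it.

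Sex was compared on HFHS within Batch1. Of 74 members, 0 were called in WT mice (1.41% of all tested genes), 0 in KO mice (1.07%) and 1 in their average (4.35%). By unadjusted p below 0.05 there were 4, 1 and 6 (15.1%, 11.2% and 19.2%). Groups did not overlap for 7 members higher and 5 lower in female WT mice (11.2% and 7.94%) and for 9 and 2 in female KO mice (9.03% and 6.88%). The median female minus male difference was 0.03, 0.05 and 0.03, and it ran from −0.0036 to 0.05 in the average when single mice were left out.

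The call was Ndufb11, an X-linked gene. It read 7.56, 7.33 and 6.75 in female WT and 6.68, 7.07 and 6.90 in female KO mice, and 6.88, 6.66 and 6.21 in male WT and 6.59, 6.30 and 6.29 in male KO mice on HFHS. Female KO mice lay above male KO mice without overlap, while 1 female WT mouse lay inside the male WT range. The averaged difference was 0.56 ± 0.16 (SE, adjusted p = 0.0492), or 1.48-fold, with 0.63 in WT (adjusted p = 0.183) and 0.49 in KO mice (0.413).

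This call sat at the threshold. It was lost under 5 of 9 other settings, and over all 9 the adjusted p (limma) ran from 0.0354 to 0.0826. When single mice were left out it was kept in 2 of 12 refits (0.0165 without female WT 3 and 0.0400 without male WT 1), and the adjusted p reached 0.118. The difference was positive throughout. Second arrays of the 2 repeated males read 7.06 and 6.80, inside the female range, and chow males, all in Batch2, read 7.10 to 8.06. Erythroid markers averaged 4.69 to 7.37 in HFHS males and 4.00 to 4.98 in females, and their part in the difference was not tested.

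The other X-linked members, Cox7b and Ndufa1, were not called. Cox7b read 4.57, 4.16 and 4.25 in female WT and 3.64, 3.54 and 3.77 in male WT mice on HFHS, without overlap, a difference of 0.68 ± 0.27 (adjusted p = 0.232, limma). The male WT values lay well under the table median of 4.57. In KO mice Cox7b read 4.50, 3.97 and 4.84 in females and 3.83, 4.50 and 4.59 in males, and the ranges overlapped. In the average, Ndufa4 had −0.18 ± 0.08 (adjusted p = 0.236), Atp5b 0.13 ± 0.07 (0.304), Sdhd 0.10 ± 0.09 (0.545) and Cyc1 0.09 ± 0.09 (0.613).

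**Figure D5:**
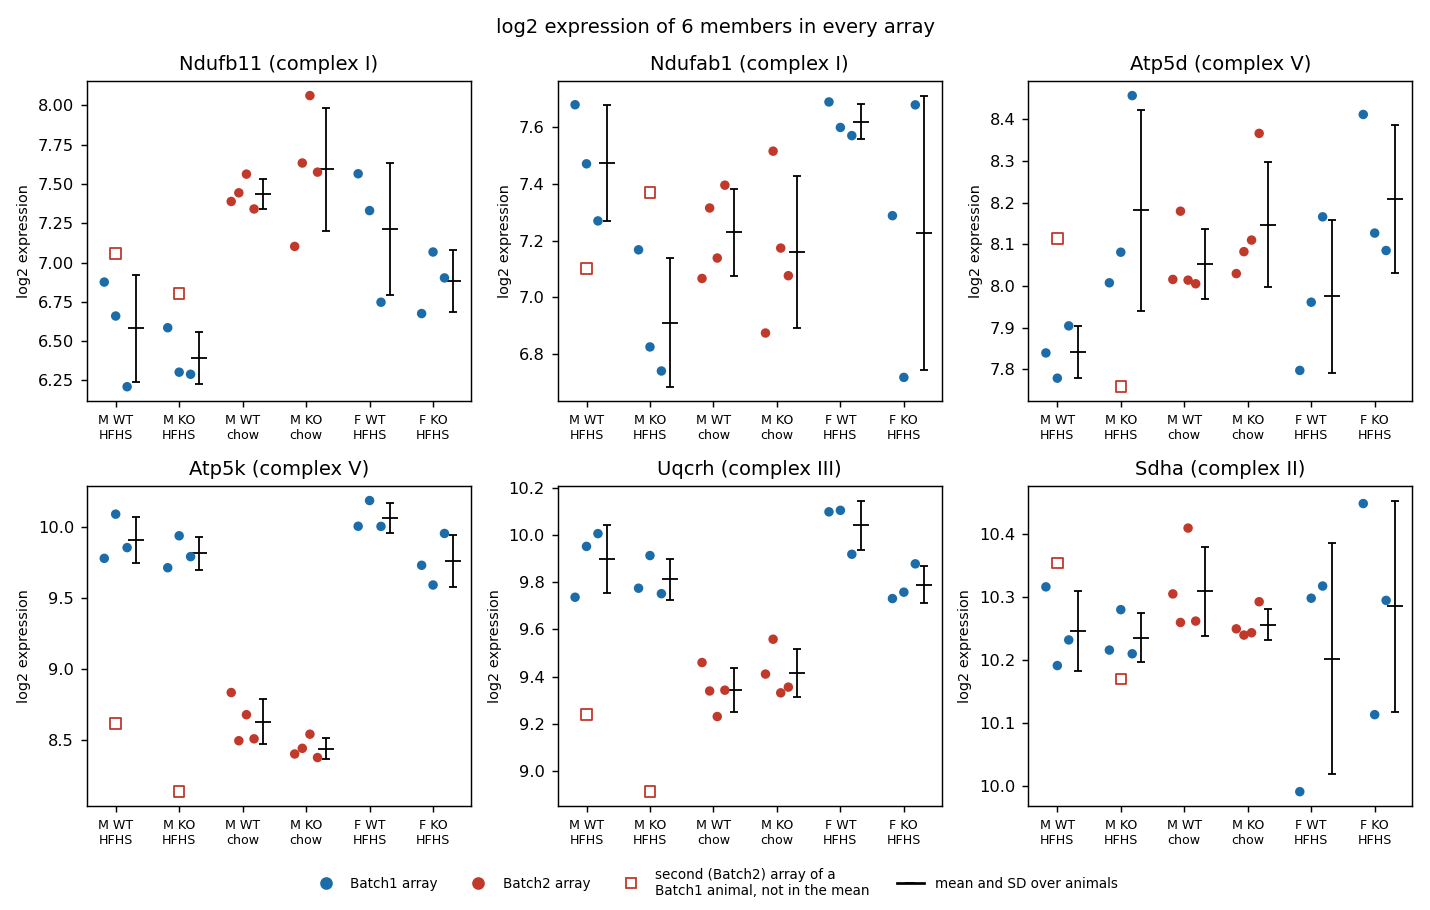
log2 expression (vertical axis) of Ndufb11, Ndufab1, Atp5d, Atp5k, Uqcrh and Sdha in every array, by group (horizontal axis); blue points are Batch1 arrays, red points Batch2 arrays, open squares second arrays, and bars the mean and SD over mice. Atp5k and Uqcrh separate by batch with the second arrays among or under the chow mice, Sdha does not, and Ndufb11 is lowest in HFHS males.

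Related gene lists gave the following in the averaged comparisons. Of 47 assembly factors, 0 were called for genotype (31 lower, median −0.02) and 0 for diet with the batch term (23 lower, median 0.02). For sex 2 were called (4.35% of all tested genes, and the background of the other lists below): Cox19, a copper-handling factor of complex IV, was lower in females (−0.64 ± 0.14, adjusted p = 0.00921) and Bcs1l, which inserts the Rieske protein into complex III, was higher (0.34 ± 0.10, adjusted p = 0.0496). Of 4 tested electron carriers and regulators of ATP synthase, 0 were called in any of the 3. Etfb, a subunit of the flavoprotein that carries electrons from fatty acid oxidation, had −0.12 ± 0.08 for genotype (adjusted p = 0.998) and 0.21 ± 0.10 for sex (adjusted p = 0.252). Atpif1, the inhibitor of ATP synthase, had 0.30 ± 0.10 for sex (adjusted p = 0.111) and 0.35 ± 0.14 for diet (adjusted p = 0.377).

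Of 12 tested regulators of mitochondrial biogenesis, 0 were called for genotype (4 lower), diet (9 lower) or sex (1 lower). Ppargc1a, the coactivator PGC-1α, had 0.37 ± 0.13 for sex (adjusted p = 0.127). Ppargc1b had −0.42 ± 0.17 for diet (adjusted p = 0.377), and Tfam, which packages mitochondrial DNA, had −0.37 ± 0.15 (adjusted p = 0.376). Of 15 other mitochondrial genes 0 were called in any of the 3. Of 72 mitochondrial ribosomal protein genes, 45 were lower in KO mice (median −0.03) with 0 called, 41 lower on HFHS with 0 called, and Mrpl16 was called lower in females (−0.41 ± 0.10, adjusted p = 0.0307). Of the 40 genes on the cytosolic ribosomal protein list, 26 were lower in KO mice (median −0.03) and 29 lower on HFHS (median −0.09) with 0 called in either. Rpl27a was called higher in females (0.61 ± 0.17, adjusted p = 0.0412, limma).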

How the data were processed

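The deposited log2 expression values were used without further scaling. The authors made them by robust multi-array averaging (RMA) with affy 1.48.0 in R 3.4.3, per the submitters' processing notes. The sources used here name no genome assembly. Of 25428 probe sets, 24705 carried 1 symbol, 0 several and 723 none, and 1 symbol was on 2 probe sets, of which that with the highest mean was kept. Coordinates and promoter windows come from RefSeq (GRCm38.p6), to which all 82 members matched.

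Genotype and sex were fitted with limma 3.58.1 (lmFit, eBayes; R 4.3.3) on 20 arrays, 1 per animal, and diet on 22 arrays with a batch term and animal block (consensus correlation 0.228), whose batch term was also tested. All p values are two-sided. The scripts were tested on simulated data. Named in a comparison were called members and the member with the smallest p in each complex. Further members were named from lists of non-overlap or batch shift, after their values had been seen. Other lists named called members, otherwise up to 2 with the smallest p. Members and lists were chosen with earlier results of these data known. Replicate numbers did not pair animals: same-number correlations ran from −0.12 to 0.21. Alternatives were no filter or a stricter one (10 arrays), quantile normalisation again, all rows, trended robust moderation, all 22 arrays, averaged repeats, no batch term, Batch2 alone, a replicate block, only the groups compared, and leaving out each animal. Arrays have no read depth. Figures used matplotlib 3.10.9 in Python 3.11.15.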

Additional observations from a re-analysis of the deposited data

Results flagged for a closer look

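Over 25 named members and the means of all members and of each complex, 62 sets of values from 4 chow mice were examined. Of these 1 held a mouse far from the others, and chance marks about 1 in 20. Atp5d in chow male WT 2 read 8.18, against 8.01 to 8.02 in the other 3 mice of its group, a gap of 0.940 of the group's range, above Dixon's critical share for groups of this size.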

How the results depend on the processing

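The batch shift and the group levels kept their size when quantile normalisation was applied again (member medians −0.31 and −0.34) and, for the shift, without the filter (−0.28 and −0.32). The deposited values had already been normalised by RMA, so repeating the quantile step says little about other ways of processing. The diet results did not keep their size. With no batch term on 20 arrays, 21 members were called in WT mice, 14 in KO mice and 38 in the average (3.46%, 7.16% and 16.6% of all tested genes), with medians of 0.31, 0.28 and 0.27. Uqcrh was then 0.56 in WT, 0.40 in KO mice and 0.48 in the average, Atp5e 0.85 in KO mice and 1.00 in the average, Sdhb 0.49 and Cox4i1 0.35 in KO mice, and Ndufa4 0.29 in the average. With technical repeats averaged and no batch term, the counts were 3, 4 and 27 (0.670%, 4.26% and 12.8% of all tested genes) and the medians 0.26, 0.20 and 0.21. Uqcrh was then 0.47, 0.26 and 0.37, Atp5e 0.63 in KO mice and 0.80 in the average, Sdhb 0.36 and Cox4i1 0.24 in KO mice, and Ndufa4 0.21 in the average. These fits leave the batch shift in the difference. For the batch term, tested with alternatives chosen after seeing the data, 21 to 28 members were called lower under the other settings and 2 to 26 when single mice were left out.

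For sex, 0 members were called with no filter, after quantile normalisation again, with technical repeats averaged, with only the groups compared and with the replicate block, and 0 to 1 when single mice were left out. The replicate block, in which animals share only a number, changed no other count of called members. With all 22 arrays, Sdhd in the genotype comparison of HFHS males was −0.029, and the cause was not tested. Leaving out single mice gave a median of −0.13 to 0.017 for the difference in genotype effect between diets, and these single genes crossed 0: Sdhc (−0.067 to 0.068) for averaged diet, Sdhb (−0.18 to 0.018) for diet in KO mice, Sdhb (−0.013 to 0.14) and Ndufa4l2 (−0.44 to 0.055) for diet in WT mice, Sdhc (−0.00036 to 0.087) for averaged genotype, Sdha (−0.022 to 0.17) for genotype in females and (−0.011 to 0.18) for its difference between sexes, and Sdhc (−0.071 to 0.19) for sex in KO mice. Of the other values of single genes, 508 kept their direction and side of the threshold under the other settings and 572 with mice left out.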
